A study of Mus musculus with 17 samples.

Results

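Pou2f1, Pou2f2 and Pou2af1 encode the transcription factors OCT-1 and OCT-2 and their coactivator OCA-B, also called BOB.1 or OBF-1. The regions described are every accessible region whose nearest transcript or nearest transcription start, as deposited, belonged to one of these 3 genes. There were 48 such regions of 66177 in all, with 20 for Pou2f1, 13 for Pou2f2 and 15 for Pou2af1.

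OCT-1 and OCT-2 are POU domain proteins that bind the octamer, an 8-base sequence found in immunoglobulin promoters and enhancers. OCT-1 is present in most cell types, whereas OCT-2 is found mainly in B cells and the nervous system. OCA-B binds to the octamer-bound POU domain rather than to free DNA, and mice that lack it do not form germinal centers.

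Accessibility was measured by ATAC-seq, in which a transposase cuts open chromatin and the fragments are sequenced. Naive B cells (nB, B220+ Fas- GL7-) came from lymph nodes of unimmunized male mice. Phycoerythrin-specific germinal center B cells (GCB, B220+ Fas+ GL7+ PE+) came from lymph nodes 30 days after immunization with phycoerythrin, as pools of male or of female mice, and bone marrow plasma cells (BMPC, CD138+) came from female mice 30 days after it. All mice carried Dnmt3a fl/fl and Dnmt3b fl/fl, floxed alleles of the de novo DNA methyltransferases. Dnmt3-sufficient controls (C) carried no Cre, and Dnmt3-deficient mice (KO) carried a Cre expressed in the B lineage. Libraries numbered 3 C and 2 KO for nB, 2 C and 4 KO for GCB, and 3 C and 2 KO for BMPC. Sex and cell type cannot be told apart between nB and BMPC.

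Values are scaled reads in peaks (RPPM), the reads in a region multiplied by 1000000 and divided by the reads of that library in all regions. Library totals were 4104875 to 6079018 reads for nB, 907959 to 2280954 for GCB and 5357687 to 8232313 for BMPC, so that GCB values are the least precise. A count of 3 reads, taken as the floor, equalled 0.494 to 0.731 RPPM in nB, 1.32 to 3.30 in GCB and 0.364 to 0.560 in BMPC, and this floor covers counting error only. The mitochondrial share was 7.43% to 10.1% of reads for GCB libraries and 2.56% to 4.59% for the others. The plasma cell label was checked against marker genes by the summed RPPM per kb of their regions. Regions of the plasma cell genes Sdc1, Xbp1, Prdm1, Tnfrsf17 and Irf4 held 26.1 to 28.0 in BMPC and 13.5 to 18.6 elsewhere. Marker regions of other bone marrow cells, summed by list, were also higher in BMPC, with 9.87 to 18.5 against 3.76 to 8.43 elsewhere for T cells (2 of 4 genes had a region), 11.4 to 13.8 against 5.16 to 10.1 for myeloid cells (3 of 4 genes: Csf1r, Itgam and Mpo) and 32.0 to 37.5 against 17.0 to 29.4 for erythroid cells (2 of 3 genes: Klf1 and Epor). From C nB to C BMPC, by the limits given below, 29 of the 70 plasma cell regions were called higher and 10 lower. These shares were 41.4% and 14.3%, against 18.0% and 20.1% of all regions. Of the 10 lower, 7 were of Prdm1 and 3 of Irf4, and Prdm1 held 33 of the 70. In the same comparison 4 of the 17 myeloid regions were called higher and 5 lower. The 4 were all of Itgam, and the 5 were 3 of Itgam and 1 each of Csf1r and Mpo. Of the 6 T cell regions 3 were called higher and 1 lower, and none of the 3 erythroid regions was called. The part of such cells in the BMPC values given here was not tested. None of the 13 regions of Dnmt3a and Dnmt3b was called between C and KO in any cell type, but accessibility does not measure removal of an exon and checks no label.

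Regions are named by gene and by the distance in kb of their middle from the start of the gene, positive in the direction of transcription, on mouse build mm9. Pou2f1 lies on chr1:167805605-167932765 on the minus strand, Pou2f2 on chr7:25876134-25917479 on the minus strand and Pou2af1 on chr9:51021795-51048184 on the plus strand. The octamer itself, ATGCAAAT on either strand, occurred in 6 of the 48 regions (12.5%), and in 5.87% of the 65893 regions on named chromosomes. In the central 300 bases, which gives every region the same length, it occurred in 10.4% of the regions of these genes and 3.96% of all. Of the 6 regions, 4 belonged to Pou2f1, 2 to Pou2af1 and none to Pou2f2. The E box CAGCTG (the same on both strands), bound by E2A and related proteins, occurred in 15 of the 48 regions (31.2%, against 32.4% of all). The ETS-IRF composite, here GGAA and GAAA with 2 bases of any kind between them on either strand, occurred in 6 (12.5%, against 8.92% of all). A match describes letters in a window and not a bound site.

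The sequences that follow are shown because they hold the octamers of 5 of the 6 octamer regions, an intronic region each of Pou2f2 and Pou2af1 that opened in BMPC without an octamer, the start of Pou2f2, and the region nearest to a call between genotypes. They are plus strand sequence of mm9, 5′ to 3′, and capitals mark the octamer, the E box and the composite.
Pou2af1 -7.8 kb, chr9:51013849-51013976, octamer and E box with starts 43 bases apart: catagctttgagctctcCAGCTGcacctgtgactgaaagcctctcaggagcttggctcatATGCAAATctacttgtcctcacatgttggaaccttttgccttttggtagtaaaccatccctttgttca
Pou2af1 -48.0 kb, chr9:50973988-50974125, octamer and E box with starts 59 bases apart: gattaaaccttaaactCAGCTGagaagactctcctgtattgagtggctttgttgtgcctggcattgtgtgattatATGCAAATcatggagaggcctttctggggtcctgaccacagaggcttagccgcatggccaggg
Pou2f1 +54.2 kb, chr1:167878389-167878636, composite, octamer and E box: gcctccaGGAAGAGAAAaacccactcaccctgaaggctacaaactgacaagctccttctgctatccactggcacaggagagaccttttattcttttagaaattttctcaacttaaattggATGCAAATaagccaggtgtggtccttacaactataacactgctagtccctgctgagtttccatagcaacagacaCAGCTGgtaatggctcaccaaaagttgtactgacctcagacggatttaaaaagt
Pou2f1 +67.6 kb, chr1:167865197-167865474, E box and 2 octamers in opposite orientation: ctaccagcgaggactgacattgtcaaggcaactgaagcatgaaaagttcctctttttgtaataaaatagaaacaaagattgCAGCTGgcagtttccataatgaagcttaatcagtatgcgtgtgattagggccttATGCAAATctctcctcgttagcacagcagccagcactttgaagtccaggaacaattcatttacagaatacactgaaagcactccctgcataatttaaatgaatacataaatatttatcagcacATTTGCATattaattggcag
Pou2f1 +74.6 kb, chr1:167857814-167857881, first octamer: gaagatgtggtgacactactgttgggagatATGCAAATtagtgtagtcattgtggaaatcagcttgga
Pou2f1 +74.6 kb, chr1:167858186-167858253, second octamer: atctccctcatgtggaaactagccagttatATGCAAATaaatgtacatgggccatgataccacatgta
Pou2f2 +6.4 kb, chr7:25910987-25911112, E box: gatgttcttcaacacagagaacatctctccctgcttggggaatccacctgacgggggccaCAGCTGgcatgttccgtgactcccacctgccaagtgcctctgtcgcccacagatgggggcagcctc
Pou2af1 +8.3 kb, chr9:51029991-51030140, middle of the region, with none of the 3 motifs in it: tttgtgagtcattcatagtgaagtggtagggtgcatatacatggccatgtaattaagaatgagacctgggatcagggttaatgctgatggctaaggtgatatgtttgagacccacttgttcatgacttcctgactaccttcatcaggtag
Pou2f2 -0.2 kb, chr7:25917530-25917659, composite upstream of the start: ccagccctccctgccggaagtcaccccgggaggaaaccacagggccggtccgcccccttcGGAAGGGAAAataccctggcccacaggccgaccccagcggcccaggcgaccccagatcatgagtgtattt
Pou2af1 -30.5 kb, chr9:50991007-50991262, 3 E boxes: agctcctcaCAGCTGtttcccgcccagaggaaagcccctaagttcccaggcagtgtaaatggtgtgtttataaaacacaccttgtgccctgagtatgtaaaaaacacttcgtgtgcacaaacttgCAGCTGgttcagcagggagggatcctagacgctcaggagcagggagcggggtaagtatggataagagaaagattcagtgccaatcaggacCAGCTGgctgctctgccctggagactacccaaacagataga

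The regions at the starts of the 3 genes were open in every library, and only that of Pou2f2 was called between cell types in C. The start of Pou2f1, encoding OCT-1, lay in chr1:167932242-167933728, which spans promoter, first exon and intron. Its RPPM was 140, 143 and 127 in C nB, 147 and 141 in KO nB, 166 and 201 in C GCB, then 154, 158, 167 and 135 in KO GCB, 126, 136 and 142 in C BMPC, and 123 and 131 in KO BMPC. The C GCB libraries were the highest as a group, and each group overlapped the next in the order C GCB, KO GCB, KO nB, C nB, C BMPC and KO BMPC.

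The start of Pou2f2, encoding OCT-2, lay in chr7:25917345-25917969. Its RPPM was 22.7, 17.1 and 16.6 in C nB, 21.9 and 21.3 in KO nB, 10.1 and 8.43 in C GCB, then 7.71, 10.8, 6.58 and 7.69 in KO GCB, 19.1, 19.9 and 21.0 in C BMPC, and 15.8 and 20.9 in KO BMPC. All 6 GCB libraries lay below all 10 other libraries. On the log2(RPPM + 1) scale, which is used for every difference here and understates changes of low values, the start of Pou2f2 rose by 1.04 ± 0.21 (SE) from C GCB to C BMPC (limma, Benjamini-Hochberg adjusted p = 0.00018). This call was lost with mitochondrial regions left out (0.96) and without C GCB library 2 (0.92). From C nB to C GCB it differed by -0.94 ± 0.21, short of the 2-fold limit for a call, with an adjusted p of 0.00073 (limma). In KO mice it fell by 1.31 from nB to GCB (limma adjusted p = 5.2e-06).

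The start of Pou2af1, encoding OCA-B, lay in chr9:51021131-51022309. Its RPPM was 81.6, 76.3 and 70.3 in C nB, 78.3 and 81.5 in KO nB, 80.9 and 75.4 in C GCB, then 69.4, 78.9, 89.0 and 64.3 in KO GCB, 54.9, 62.2 and 59.3 in C BMPC, and 55.9 and 54.1 in KO BMPC. The 5 BMPC libraries were the lowest, by -0.37 ± 0.11 from C nB to C BMPC, which did not reach a call, and the 4 nB and GCB groups overlapped in order. Per length, the mean in C nB was 92.0 RPPM per kb at the start of Pou2f1, 64.5 at that of Pou2af1 and 30.1 at that of Pou2f2. Pou2f1 had a second open start, Pou2f1 +67.6 kb (chr1:167864736-167865642), where GENCODE vM1 places the starts of 3 transcripts between 167864962 and 167865070. This region was chosen after its values were seen, and held 47.3, 47.9 and 47.6 RPPM in C nB, 87.5 and 74.0 in C GCB and 59.6, 60.4 and 62.4 in C BMPC, with no overlap between the 3 cell types and no call, at 0.75 ± 0.11 from nB to GCB (limma adjusted p = 4.1e-06). Its 2 octamers lie upstream of those transcript starts.

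**Figure D1:**
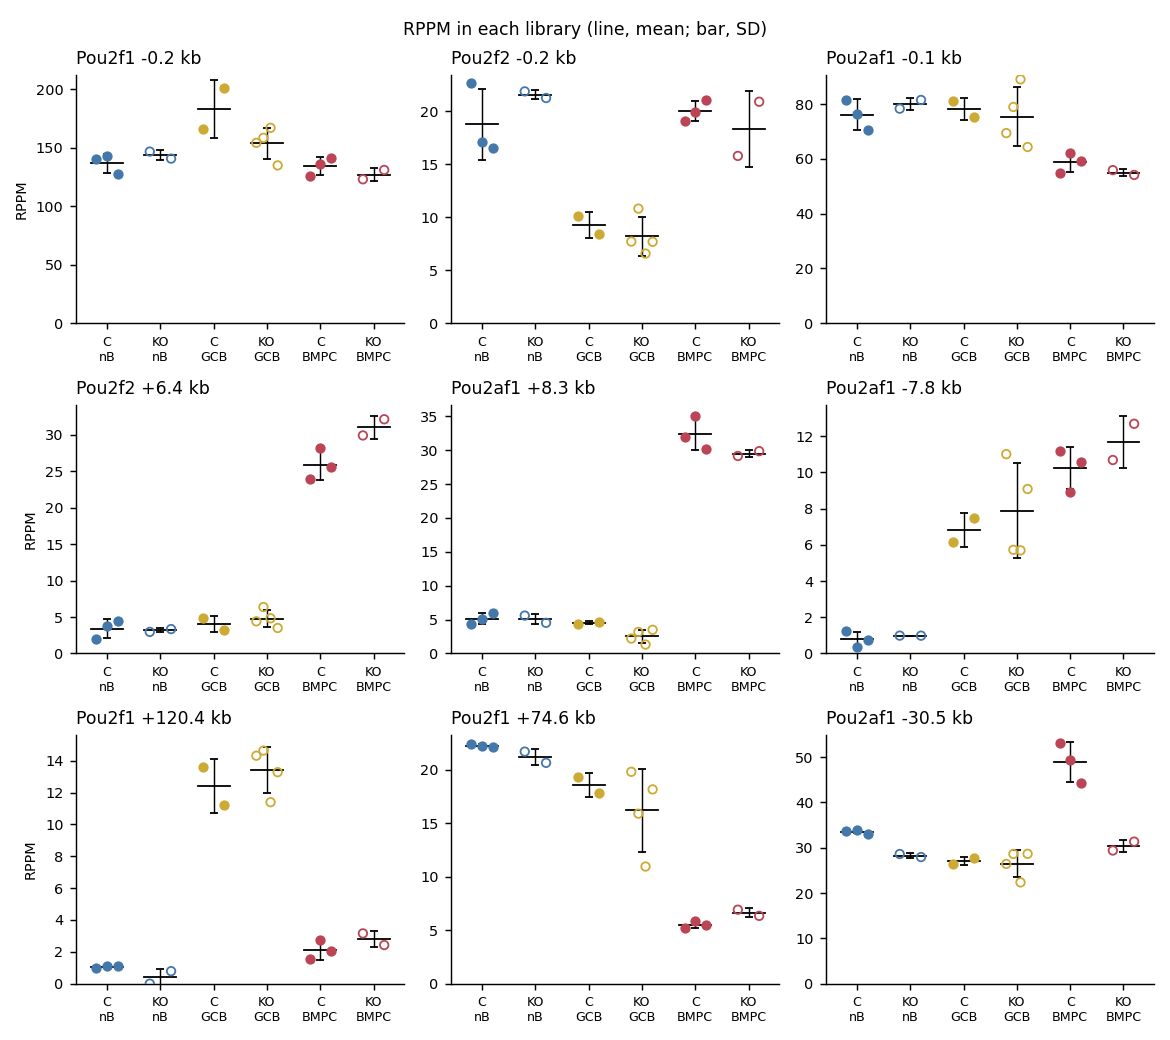
RPPM (vertical axis, from 0) in each of the 16 libraries at 9 regions, with C as filled and KO as open points, by cell type, and with the mean (line) and SD (bar) of each group. The starts of Pou2f1 and Pou2af1 are open in all groups, the start of Pou2f2 is low in the 6 GCB libraries, and the introns at Pou2f2 +6.4 kb and Pou2af1 +8.3 kb are open in the 5 BMPC libraries.

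Between cell types, regions were called where the adjusted p was 0.01 or less and the change was 2-fold or more on that scale (limma fit of all 16 libraries, adjusted over all 66177 regions). In C libraries 25 of the 48 regions were called in at least 1 of the 3 comparisons (51.8% of all regions were): 9 of 20 for Pou2f1, 5 of 13 for Pou2f2 and 11 of 15 for Pou2af1. From C nB to C GCB 10 of 48 regions were called (20.8%, against 22.7% of all regions), 9 of them higher (14.2% of all regions were) and 1 lower (8.47% of all). From C nB to C BMPC 17 were called (35.4%, against 38.1% of all), 10 higher (18.0% of all) and 7 lower (20.1% of all). From C GCB to C BMPC 14 were called (29.2%, against 30.4% of all), 5 higher (11.3% of all) and 9 lower (19.1% of all). The share called was thus near that of all regions in each comparison. The median log2 difference over the 48 regions was 0.22, 0.12 and -0.04 in the 3 comparisons, and 0.05, 0.03 and -0.06 over all regions. In these bulk samples, fewer cells with an open region and less opening per cell cannot be told apart.

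Of the 20 regions of Pou2f1, 12 had their highest C mean in GCB, of which 5 were called in a comparison. Of the 13 regions of Pou2f2, 8 had their highest C mean in BMPC, of which 4 were called, and 1 in GCB. Of the 15 regions of Pou2af1, 8 had it in BMPC, of which 6 were called, 4 in nB and 3 in GCB. These counts describe regions of 1 gene each, which share their libraries, and no test of a difference between the genes was made. The same counts over all regions are not given, so no leaning of a gene toward a cell type is read from them.

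**Figure D2:**
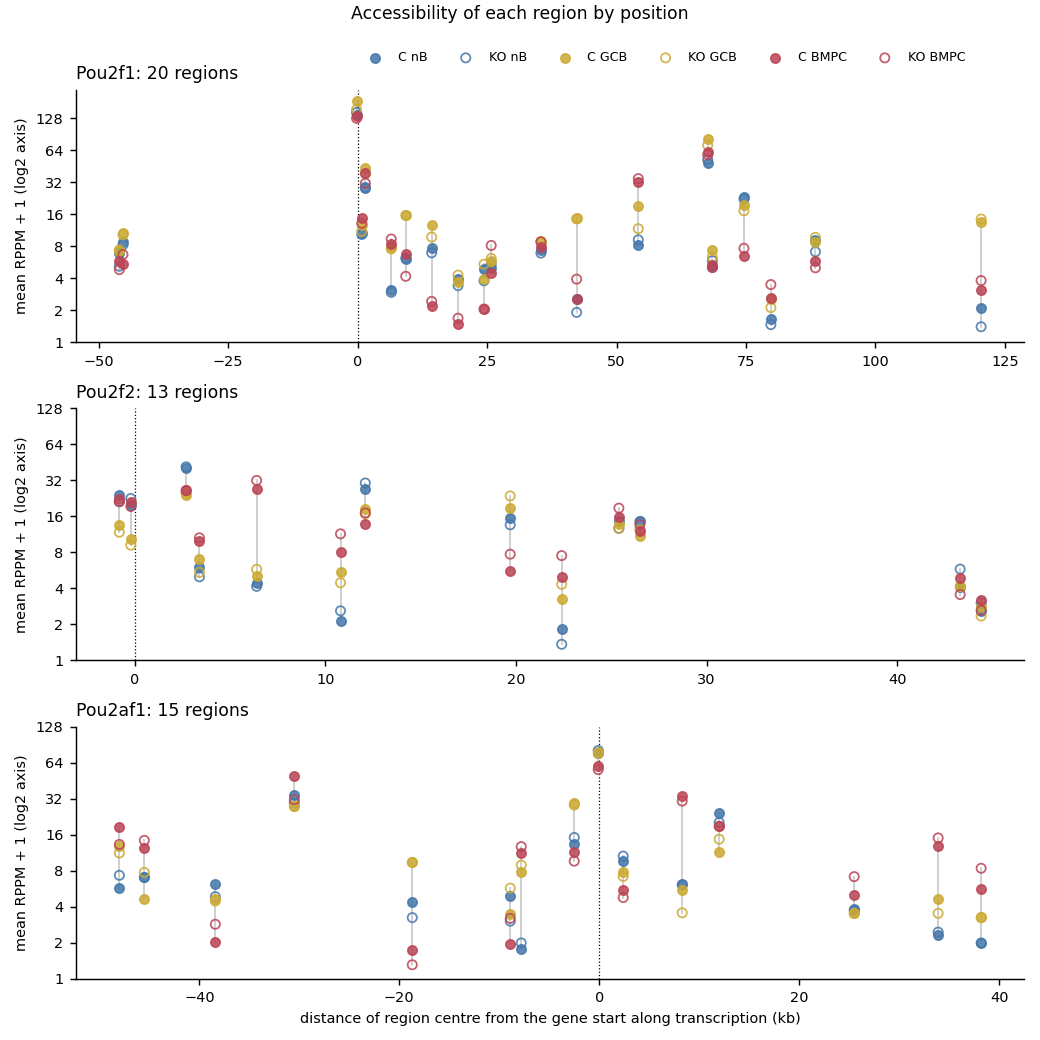
Mean RPPM + 1 (vertical, log2 axis) of each region against the distance of its middle from the gene start (horizontal, kb along transcription), with 1 panel for each of the 3 genes, filled points for C and open points for KO, coloured by cell type, and a grey line over the range of the 6 groups. Points of all groups sit close together at the dotted start lines of Pou2f1 and Pou2af1, and BMPC points stand well above the rest at Pou2f2 +6.4 kb and Pou2af1 +8.3 kb.

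The largest rise among regions of Pou2f2 from C nB to C BMPC lay within an intron. Pou2f2 +6.4 kb (chr7:25910786-25911331) held 1.95, 3.77 and 4.47 RPPM in C nB, 2.96 and 3.35 in KO nB, 4.84 and 3.28 in C GCB, then 4.41, 6.36, 4.82 and 3.50 in KO GCB, 23.9, 28.1 and 25.5 in C BMPC, and 29.9 and 32.1 in KO BMPC. All 5 BMPC libraries lay above all 11 others, and nB and GCB overlapped. The rise was 2.66 ± 0.25 from C nB to C BMPC and 2.42 ± 0.28 from C GCB (limma adjusted p = 4.3e-10 and 3.4e-08), and 2.95 ± 0.30 from KO nB to KO BMPC.

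Smaller intronic regions of Pou2f2 also opened in BMPC. Pou2f2 +10.8 kb (chr7:25906475-25906820) held 0.974, 2.07 and 0.372 RPPM in C nB, 6.60 and 2.34 in C GCB and 7.67, 7.48 and 5.92 in C BMPC, a rise of 1.98 ± 0.32 from nB to BMPC. Its rise from C nB to C GCB (1.31 ± 0.36) was lost without C GCB library 1 (0.72, limma adjusted p = 0.19), without C nB library 1 (adjusted p = 0.014) and without C nB library 3 (adjusted p = 0.035). Pou2f2 +22.4 kb (chr7:25894953-25895130) held 1.22, 0.754 and 0.558 RPPM in C nB, 2.64 and 1.87 in C GCB and 3.77, 3.47 and 4.67 in C BMPC, a rise of 1.44 ± 0.29 from nB to BMPC with nB near the floor.

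Pou2f2 +19.7 kb (chr7:25897443-25898159), also intronic, went the other way and was most open in GCB. Its RPPM was 11.4, 15.6 and 16.01 in C nB, 11.0 and 14.2 in KO nB, 19.4 and 15.9 in C GCB, then 18.7, 29.3, 23.2 and 19.6 in KO GCB, 4.55, 4.38 and 4.83 in C BMPC, and 7.29 and 6.16 in KO BMPC. The 5 BMPC libraries were the lowest, and C nB overlapped C GCB. The fall was 1.45 on the log2 scale from C nB to C BMPC and 1.73 from C GCB to C BMPC (SE 0.20 and 0.22, limma adjusted p = 5.6e-07 and 3.0e-07).

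Pou2af1 had an intronic region of the same pattern as Pou2f2 +6.4 kb. Pou2af1 +8.3 kb (chr9:51029675-51030456) held 4.39, 5.09 and 5.96 RPPM in C nB, 5.59 and 4.53 in KO nB, 4.40 and 4.68 in C GCB, then 2.20, 3.18, 1.32 and 3.50 in KO GCB, 32.0, 35.0 and 30.2 in C BMPC, and 29.2 and 29.9 in KO BMPC. Every BMPC library lay above every other library. The rise was 2.45 ± 0.24 from C nB to C BMPC and 2.59 ± 0.26 from C GCB to C BMPC (limma adjusted p = 9.4e-10 and 5.1e-09). Per length, C BMPC reached 41.4 RPPM per kb here, against 49.9 at the start of Pou2af1, and 47.4 at Pou2f2 +6.4 kb against 32.0 at the start of Pou2f2.

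Downstream of the gene, Pou2af1 +33.9 kb (chr9:51055341-51055949) also opened in BMPC, with 1.46, 1.13 and 1.30 RPPM in C nB, 3.08 and 4.22 in C GCB and 10.4, 13.5 and 12.0 in C BMPC. It rose by 2.49 ± 0.40 from C nB to C BMPC (limma adjusted p = 6.1e-06). Its rise from C GCB to C BMPC (1.48 ± 0.45) was lost without any 1 of the 5 libraries of these groups, at limma adjusted p between 0.012 and 0.074.

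The 2 octamer regions of Pou2af1 lay upstream of the gene and were low in nB. Pou2af1 -7.8 kb (chr9:51013566-51014355) held 1.22, 0.377 and 0.744 RPPM in C nB, 0.987 and 0.984 in KO nB, 6.16 and 7.49 in C GCB, then 11.0, 5.73, 5.70 and 9.09 in KO GCB, 11.2, 8.94 and 10.6 in C BMPC, and 10.7 and 12.7 in KO BMPC. All 5 nB libraries were at or near the floor and below the other 11. The rise was 2.16 ± 0.31 from C nB to C GCB and 2.68 ± 0.27 from C nB to C BMPC (limma adjusted p = 2.2e-06 and 2.7e-09), and 2.11 and 2.67 in KO.

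Pou2af1 -48.0 kb (chr9:50973560-50974125) held 3.41, 5.65 and 5.21 RPPM in C nB, 5.92 and 6.69 in KO nB, 11.4 and 12.2 in C GCB, then 12.1, 9.55, 8.77 and 10.5 in KO GCB, 18.2, 19.7 and 14.8 in C BMPC, and 11.4 and 13.1 in KO BMPC. In C the 3 cell types did not overlap, in the order nB, GCB and BMPC. It rose by 1.18 ± 0.23 from C nB to C GCB and 1.70 ± 0.21 from C nB to C BMPC (limma adjusted p = 0.00019 and 7.1e-08); without C nB library 1 the first of these was 0.99, under the limit for a call.

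Pou2af1 -18.7 kb (chr9:51002956-51003256) was open in GCB and closed in BMPC. It held 3.65, 2.45 and 4.09 RPPM in C nB, 9.68 and 7.03 in C GCB and 0.650, 1.09 and 0.467 in C BMPC, with no overlap. It fell by 2.43 on the log2 scale from C GCB to C BMPC and by 1.34 from C nB to C BMPC (limma adjusted p = 1.5e-06 and 0.00059), and C BMPC was near the floor. Pou2af1 -38.4 kb (chr9:50983194-50983565) held 4.14, 5.46 and 5.77 RPPM in C nB, 2.64 and 4.68 in C GCB and 0.910, 1.09 and 1.09 in C BMPC, a fall of 1.58 from nB to BMPC.

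Pou2f1 had intronic regions that were open in GCB and nearly closed in nB and in BMPC. Pou2f1 +120.4 kb (chr1:167812173-167812647), annotated as promoter and intron, held 0.974, 1.13 and 1.12 RPPM in C nB, 0 and 0.787 in KO nB, 13.6 and 11.2 in C GCB, then 14.3, 14.6, 11.4 and 13.3 in KO GCB, 1.56, 2.74 and 2.02 in C BMPC, and 3.16 and 2.43 in KO BMPC. The 6 GCB libraries stood apart from all 10 others. The difference was 2.69 ± 0.31 from C nB to C GCB and -2.12 ± 0.31 from C GCB to C BMPC (limma adjusted p = 8.6e-08 and 2.1e-06).

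Pou2f1 +42.3 kb (chr1:167890215-167890756) held 1.71, 2.26 and 0.744 RPPM in C nB, 0.823 and 0.984 in KO nB, 13.2 and 14.1 in C GCB, then 8.81, 15.3, 10.1 and 19.6 in KO GCB, 1.95, 1.82 and 0.934 in C BMPC, and 3.40 and 2.43 in KO BMPC. Here too every GCB library lay above every other library, at 2.56 ± 0.35 from C nB and -2.53 ± 0.35 to C BMPC (limma adjusted p = 1.1e-06 and 7.0e-07).

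Of the 4 octamer regions of Pou2f1, 1 rose, 1 fell and 2 were not called from C nB to C BMPC. Pou2f1 +54.2 kb (chr1:167878128-167878912) held 7.55, 6.59 and 7.63 RPPM in C nB, 5.92 and 10.4 in KO nB, 13.6 and 23.0 in C GCB, then 11.0, 11.5, 11.8 and 8.39 in KO GCB, 30.6, 29.9 and 33.9 in C BMPC, and 30.6 and 36.6 in KO BMPC. It rose by 1.98 ± 0.21 from C nB to C BMPC (limma adjusted p = 3.6e-09), whereas its rise from C nB to C GCB (1.18 ± 0.23) was 0.83 without C GCB library 2 (limma adjusted p = 0.020).

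Pou2f1 +74.6 kb (chr1:167857775-167858482), with 2 octamers, held 22.4, 22.2 and 22.1 RPPM in C nB, 21.7 and 20.7 in KO nB, 19.4 and 17.8 in C GCB, then 19.8, 15.9, 11.0 and 18.2 in KO GCB, 5.20, 5.84 and 5.45 in C BMPC, and 6.92 and 6.35 in KO BMPC. The 5 BMPC libraries were the lowest, with a fall of 1.84 from C nB and of 1.59 from C GCB (limma adjusted p = 3.2e-09 and 5.0e-07). Of the 6 octamer regions of the 3 genes, 3 were called higher and 1 lower from C nB to C BMPC, against 18.0% higher and 20.1% lower of all regions and 29.4% and 22.1% of the 3867 regions with an octamer.

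Pou2f1 +14.3 kb (chr1:167918273-167918708) also closed in BMPC, with 7.55, 6.41 and 5.96 RPPM in C nB, 11.0 and 12.2 in C GCB and 0.780, 1.46 and 1.25 in C BMPC, a fall of 2.55 from C GCB to C BMPC. Pou2f1 +6.5 kb (chr1:167926061-167926422) opened in both, with 1.95, 1.88 and 2.42 RPPM in C nB, 7.48 and 6.09 in C GCB and 7.15, 6.75 and 8.41 in C BMPC, a rise of 1.33 ± 0.29 and 1.45 ± 0.26. Its call from C nB to C GCB was lost without C GCB library 1 (1.21, limma adjusted p = 0.012).

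The same comparisons in KO mice called 8 regions from nB to GCB (26.3% of all regions were called), 15 from nB to BMPC (35.3% of all) and 18 from GCB to BMPC (32.0% of all). Of the 10, 17 and 14 regions called in C, 5, 12 and 12 were also called in KO, which is 50.0%, 70.6% and 85.7% of those called in C and 62.5%, 80.0% and 66.7% of those called in KO. All regions called in both had the same direction. Among regions called in C, the direction in KO was the same for 10 of 10, 16 of 17 and 14 of 14. The same shares over all regions are not given, so these values do not show whether the agreement is high or low for these data.

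Between KO and C, which addresses loss of de novo DNA methylation, no region of the 3 genes was called. By limma 0 of 48 were called in nB (0% of all 66177 regions), 0 in GCB (0.0317% of all) and 0 in BMPC (0.104% of all). At an unadjusted p under 0.05, limma gave 0 of 48 in nB (1.67% of all regions), 4 in GCB (11.8% of all) and 6 in BMPC (9.55% of all). On the recovered reads, edgeR also called 0 of 48 in each cell type, by its quasi-likelihood and by its likelihood ratio test. They called 0.0106% and 0.0151% of all regions in nB, 0.00151% and 0.0181% in GCB, and 1.81% and 2.53% in BMPC. At an unadjusted p under 0.05 the quasi-likelihood test gave 2, 4 and 10 of 48 (4.55%, 6.40% and 19.3% of all regions), and the likelihood ratio test 2, 4 and 11 (5.50%, 7.37% and 21.1% of all). The median log2 difference of the 48 regions was -0.03 in nB, -0.09 in GCB and 0.12 in BMPC, and -0.01, 0.03 and 0.03 over all regions. A change under 2-fold on this scale was never called, and with 2 to 4 libraries a group a larger change could also go uncalled.

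The region nearest to a call was Pou2af1 -30.5 kb (chr9:50990632-50991961), upstream of Pou2af1, which was chosen after its values were seen. It held 33.6, 33.9 and 33.1 RPPM in C nB, 28.6 and 27.9 in KO nB, 26.4 and 27.6 in C GCB, then 26.4, 28.6, 22.4 and 28.7 in KO GCB, 53.1, 49.4 and 44.2 in C BMPC, and 29.4 and 31.4 in KO BMPC. In BMPC every C library lay above every KO library, and KO BMPC lay below C nB. KO was lower than C in BMPC by -0.67 ± 0.14 (limma adjusted p = 0.022), which passes neither the p nor the fold limit. The quasi-likelihood test of edgeR gave -0.76 with an adjusted p of 1.8e-05, still under 2-fold. The limma adjusted p was between 0.25 and 0.28 without either KO BMPC library, with differences of -0.71 and -0.62. The difference in BMPC was not shown to differ from that in nB or GCB, with interactions of -0.43 ± 0.20 and -0.63 ± 0.20 (limma adjusted p = 0.94 and 0.31). Of 4 T cell genes, Cd8a and Bcl11b had no region, and the 6 regions of Cd3e and Cd4 held 13.4 to 18.5 summed RPPM per kb in C BMPC and 9.87 to 10.6 in KO BMPC. The region nearest the start of Cd4 held 15.9 RPPM in C BMPC and 11.7 in KO BMPC, and that of Cd3e was near the floor at 0.54 and 0.68. This Cd4 region also held 11.2 to 11.4 RPPM in C GCB and 8.39 to 12.1 in KO GCB. In nB it held 0.658 to 1.18. The staining panels of the study held an antibody to the T cell protein Thy1, among stains described as removing auto-fluorescent cells. The part of T cells in this difference was not tested.

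For Pou2f2, the smallest p between KO and C in BMPC was at Pou2f2 +19.7 kb, where the C mean was 4.59 RPPM (SD 0.23) and the KO mean 6.72 (SD 0.80), a difference of 0.46 ± 0.22 (limma adjusted p = 0.51). In GCB, the difference at this region was 0.33 ± 0.21 and C and KO overlapped. In BMPC, every KO library lay above every C library at 15 of 48 regions (31.2%, against 20.0% of all regions), 7 of them among the 13 of Pou2f2, and below at 7 of 48 (14.6%, against 13.8% of all). In nB the counts were 3 above (9.38% of all regions) and 9 below (11.0% of all), and in GCB 1 above (7.47% of all) and 2 below (5.52% of all). No interaction between genotype and cell type was called at any of the 48 regions by limma, where 6, 2 and 4 had an unadjusted p under 0.05 for BMPC against nB, BMPC against GCB and GCB against nB (5.24%, 8.32% and 6.21% of all regions). Limma called 0% of all regions for each of the 3 interactions. The edgeR tests called 0 of 48 too, where the quasi-likelihood test called 0.0771%, 0.0287% and 0% of all regions and the likelihood ratio test 0.298%, 0.113% and 0.00604%. At an unadjusted p under 0.05 they gave 12, 3 and 4 of 48 by quasi-likelihood (10.7%, 8.58% and 6.26% of all) and 12, 3 and 5 by likelihood ratio (12.1%, 9.91% and 7.27% of all).

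**Figure D3:**
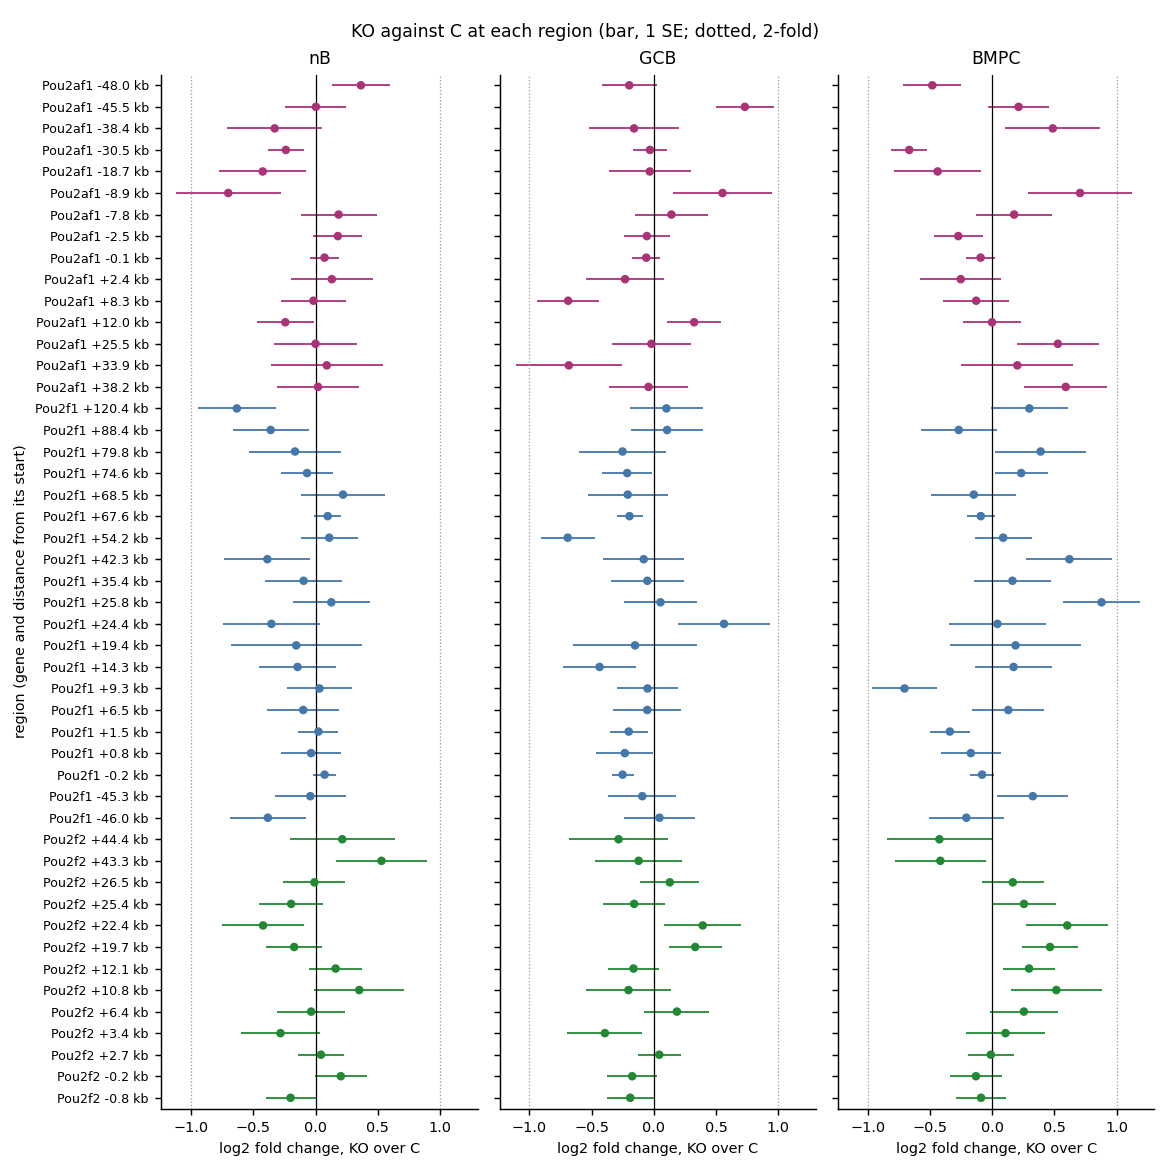
Difference between KO and C (horizontal, log2 fold change with a bar of 1 SE) at each of the 48 regions (vertical, coloured by gene) in nB, GCB and BMPC, with dotted lines at 2-fold. No point crosses a dotted line, and Pou2af1 -30.5 kb in BMPC, at -0.67, is among the lowest points of its panel.

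Genes tied to the octamer factors by earlier work were measured as a list of 13: the relative Pou2f3; Siah1a and Siah1b, ubiquitin ligases that act on OCA-B; Spib, an ETS factor; and Cxcr5, Cd36, Ms4a1, Cd79b, Btk, Il6, Cd22, Bcl6 and Prdm1. They held 108 regions. From C nB to C GCB 12 were higher and 25 lower (11.1% and 23.1%, against 14.2% and 8.47% of all regions). From C nB to C BMPC 15 were higher and 53 lower (13.9% and 49.1%, against 18.0% and 20.1% of all). From C GCB to C BMPC 13 were higher and 31 lower (12.0% and 28.7%, against 11.3% and 19.1% of all). Prdm1, the repressor that drives plasma cell differentiation, held 33 of the 108 regions. It had 11 of the 15 higher and 7 of the 53 lower in C BMPC than in C nB. From C nB to C GCB it had 3 of the 12 higher and 13 of the 25 lower. From C GCB to C BMPC it had 12 of the 13 higher and 0 of the 31 lower, of which Bcl6 had 12.

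Of the 12 genes with a region assigned by nearest start, that region was lower in C BMPC than in C nB for 6 (Spib, Cxcr5, Cd36, Ms4a1, Cd79b and Cd22), higher for Il6 and not called for 5 (Siah1a, Siah1b, Btk, Bcl6 and Prdm1). The region of Siah1a lay 11081 bp from the start of that gene, so it does not measure the start itself. The start of Cxcr5, the receptor that guides B cells to follicles, held 62.6 ± 4.51 RPPM (SD, n = 3) in C nB and 7.37 ± 2.14 (n = 3) in C BMPC, a fall of 2.96 (limma adjusted p = 4.6e-14). The start of Ms4a1, encoding CD20, held 80.2 ± 3.54 and 13.4 ± 1.51 (n = 3 each), a fall of 2.50 (limma adjusted p = 4.3e-15). The start of Spib held 14.2 ± 2.59 in C nB and 5.23 ± 1.53 in C BMPC, a fall of 1.30. The start of Btk differed by -0.81 and that of Bcl6 by -0.84, both short of 2-fold. That of Prdm1 differed by 0.56 from C nB to C BMPC, also short of 2-fold, and rose by 1.05 from C GCB to C BMPC. Between KO and C, 1 of the 108 regions was called, a region of Cxcr5 higher in KO BMPC by 1.38 ± 0.24 (limma adjusted p = 0.0051, with 0.104% of all regions called). That call was lost without any 1 of the 5 BMPC libraries (limma adjusted p between 0.012 and 0.15) and without C nB library 3 or either KO nB library (0.010 to 0.011), and without either KO BMPC library 1 of all 66177 regions was called in place of 69.

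Likeness to the 3 starts was measured by Pearson's r of log2(RPPM + 1) over the 16 libraries, among 10375 regions at gene starts, as a description in which all points share libraries. The starts most like that of Pou2f2 were those of Raver1 (r = 0.98), Mcur1 (0.98), Crk (0.98), Mapk3 (0.97) and Msl1 (0.97), which were also lower in C GCB than in C nB. The starts most like that of Pou2af1 were those of Lst1 (0.91), Gm6377 (0.90), Msn (0.90), Rbm41 (0.90) and Fcrl1 (0.90), all lower in BMPC. Those most like that of Pou2f1 were Piga (0.88), Azi2 (0.88), Mad2l1 (0.87), Sms (0.87) and Syne3 (0.87), with their highest means in C GCB. The GCB libraries also had the lowest depth and the highest share of mitochondrial reads, and the part of either in this likeness was not tested.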

How the data were processed

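ATAC-seq of 16 libraries in 6 groups was analysed. A 17th described sample has no column in the table. The paper states that 1 sample was removed for its share of reads in peaks, and does not name it. The authors trimmed reads, mapped them to mm9 with Bowtie (1.1.1 in the submitters' processing notes, with Picard 1.127, MACS2 2.1.0.20140616 and edgeR 3.12.1; the paper names other versions of some), called peaks per sample at a q of 0.01, and merged them. The deposited values are RPM of reads in regions (RPPM), with 54 columns of the authors' own 9 comparisons (fold changes, p-values), not used. Because RPPM depends on all regions of a library, a share taken by mitochondrial reads lowers every other value.

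All 1058832 values were whole multiples of 1 read (100%, tolerance 0.01), and these reads were used for edgeR 4.0.16. The main test was limma 3.58.1 (R 4.3.3) on log2(RPPM + 1), 1 mean per group, variance trend, Benjamini-Hochberg over 66177 regions, called at 0.01 and 2-fold. It was tested on simulated data. All p-values measure the spread between libraries. Regions described were those nearest each gene start and the Pou2f2 region nearest to a call between KO and C in BMPC. Of those called between cell types in C, the 6 per gene with the largest change were also described (5 exist for Pou2f2). Only C library values were given for Pou2f1 +67.6, +14.3 and +6.5 kb, Pou2f2 +10.8 and +22.4 kb, and Pou2af1 +33.9, -18.7 and -38.4 kb. The starts named as alike were the 5 with the highest r, within 1000 bp of a start and with a mean of at least 5 RPPM. The genes, lists and tests were chosen with earlier results of these data known. The E box and composite were searched after the octamer result was seen. Sequence was read from NCBIM37 (mm9), where all 65893 regions on named chromosomes fit. Alternatives were pseudocounts of 0.1 and 5 RPPM, a mean of at least 1 RPPM, TMM, mitochondrial regions left out, each library left out, a pool block and 2 edgeR tests. The marker checks of the nB and GCB labels and some details of the genotypes are not reported here.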

Additional observations from a re-analysis of the deposited data

Results flagged for a closer look

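Every KO library lay on one side of every C library in nB and on the other side in BMPC at 5 of the 48 regions (10.4%, against 3.04% of all regions). Of these, 4 are among the regions described. The log2 difference of KO from C was -0.069 in nB and 0.23 in BMPC at Pou2f1 +74.6 kb, -0.42 and 0.60 at Pou2f2 +22.4 kb, 0.36 and -0.48 at Pou2af1 -48.0 kb, and -0.33 and 0.49 at Pou2af1 -38.4 kb. The difference between the cell types was tested by the interaction of genotype and cell type, and limma's adjusted p was 1 at Pou2f1 +74.6 kb, 0.91 at Pou2f2 +22.4 kb, 0.75 at Pou2af1 -48.0 kb and 1 at Pou2af1 -38.4 kb. At Pou2f2 +22.4 kb both KO nB libraries were under the floor of 3 reads. No KO GCB library stood apart from the other 3 at any of the 21 regions described.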

How the results depend on the processing

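With a pseudocount of 5 RPPM the calls fell to 3 from C nB to C GCB, 8 from C nB to C BMPC, 9 from C GCB to C BMPC, 4 from KO nB to KO GCB, 9 from KO nB to KO BMPC and 11 from KO GCB to KO BMPC, since a larger pseudocount shrinks the fold changes of low regions. Of all regions, 10.3%, 18.6%, 15.2%, 10.6%, 19.3% and 15.3% were called at that setting. With 1 library left out, the 6 counts ranged from 7 to 11, 15 to 18, 12 to 16, 7 to 9, 10 to 17 and 13 to 19. The counts of the 48 regions called between KO and C in nB, GCB and BMPC, and of interactions, were 0 under every alternative run, from 0 to 0 with 1 library left out. The other settings moved no count by over 1.5 times. For the regions described, 42 differences were recomputed under 23 settings: none of the 966 values changed direction where a call stood, 939 kept their side of the limit and 27 lost the call, 12 of them with a pseudocount of 5 RPPM. At Pou2af1 +33.9 kb the call from C GCB to C BMPC was also lost with a pseudocount of 0.1 RPPM and with mitochondrial regions left out. Pool names F2 and M1 occur in C and KO GCB. The deviations of same-named pools correlated at r = 0.04 over 64511 regions. The names were not taken as pairs, but with 2 pairs of shallow libraries this check cannot exclude pairing. The fit with the replicate block compares KO with C only through the pools whose names occur in both. In it 0 of the 48 regions were called between KO and C in GCB, and 135 of all 66177 (0.204%) in place of 21. Depth limits GCB most, where 3 reads equal up to 3.30 RPPM.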
